A study of Mus musculus with 8 samples.

Results

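The genes described here are 8 that mark noradrenergic sympathetic neurons: the enzymes Th, Ddc and Dbh, the transporters Slc18a2 and Slc6a2, the peptide Npy, the neurotrophin receptor Ngfr and the transcription factor Phox2a. They were picked by symbol among the 48607 loci of the deposited gene table, and each symbol matched 1 locus, so the tie rule on summed counts was never needed. RNA-seq of whole aortas was compared between ApoE-/- mice, which develop atherosclerosis, and NPRC-/-ApoE-/- mice, which also lack natriuretic peptide receptor C. Every mouse in both groups lacked ApoE and was fed a Western diet, for 12 weeks, and the ApoE-/- males were obtained at 8 weeks of age. The NPRC-/- line carries a CRISPR frameshift in the first coding exon of Npr3 on a C57BL/6 background in every cell of the body, and littermates served as controls. By title, 5 libraries were ApoE-/- and 3 were NPRC-/-ApoE-/- (the double knockout).

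Sympathetic neurons make noradrenaline in a fixed series of steps. Tyrosine hydroxylase (Th) turns tyrosine into L-DOPA and limits the rate of the whole pathway, DOPA decarboxylase (Ddc) turns L-DOPA into dopamine, the vesicular monoamine transporter (Slc18a2, also called VMAT2) loads dopamine into vesicles, dopamine beta-hydroxylase (Dbh) turns it into noradrenaline inside them, and the noradrenaline transporter (Slc6a2) takes released transmitter back. The cell bodies of these neurons, which hold most of their mRNA, sit in ganglia along the aorta, while their axons end in the adventitia at the border of the media, where released noradrenaline and neuropeptide Y constrict smooth muscle.

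The title and the genotype entry of the labels disagreed for 4 of the 8 libraries. ApoE-/- 4 and ApoE-/- 5 were entered as Nprc-/-Apoe-/-, and NPRC-/-ApoE-/- 1 and NPRC-/-ApoE-/- 2 were entered as Apoe-/-. Groups follow the titles below. The fits of the 8 genes are repeated with the entries, and the other gene lists are described mainly by title. The level of the targeted gene Npr3, in FPKM, fragment counts scaled to transcript length and library depth,, was 0.62 to 1.69 in the libraries titled ApoE-/- and 1.13 to 1.39 in those titled NPRC-/-ApoE-/-, so its RNA did not separate the titles, and a frameshift does not need to lower it. Summed counts ran from 62969165 to 86693276 per library. ApoE-/- 3 stood apart from the others, with the highest level of 8 of the 8 genes, and results are given with and without it.

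The promoters of 7 of the 8 genes were found in RefSeq (GRCm38.p6), each as the 250 bases before the transcription start and the 50 after it. Slc6a2 had no entry there. The letters TGACGTCA, the cAMP response element through which CREB-family factors act, were found on either strand in 1.79% of the 32851 mouse promoters of that length, and in the promoters of Th and Slc18a2 among these genes. Their first bases stood at positions -45 in Th and -4 in Slc18a2, where -1 is the base before the start. The homeodomain core ATTA, the kind of letters that PHOX2 proteins bind, was found in 58.0% of all promoters. It occurred 3 times in the promoter of Dbh, at -157, -147 and -65. It was also found in the promoters of Th, Ddc and Slc18a2, and not in those of Npy, Ngfr and Phox2a. The TATA box TATAAA, in 13.6% of all promoters, was found in 1 of the 2 promoters of Ddc alone, on the minus strand at -68. The stretches that hold the cAMP response elements and the 3 homeodomain cores are shown 5′ to 3′ from 250 bases before the start to 30 after it, with the letters TGACGTCA in capitals in Th and Slc18a2 and the letters ATTA in capitals in Dbh.
Th, chr7:142899966-142900245, minus strand: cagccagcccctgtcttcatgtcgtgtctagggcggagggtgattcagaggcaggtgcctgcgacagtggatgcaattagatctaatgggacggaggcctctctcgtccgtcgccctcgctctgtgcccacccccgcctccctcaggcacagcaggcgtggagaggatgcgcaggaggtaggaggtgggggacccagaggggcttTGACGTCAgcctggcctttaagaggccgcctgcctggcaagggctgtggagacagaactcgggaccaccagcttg
Slc18a2, chr19:59260628-59260907, plus strand: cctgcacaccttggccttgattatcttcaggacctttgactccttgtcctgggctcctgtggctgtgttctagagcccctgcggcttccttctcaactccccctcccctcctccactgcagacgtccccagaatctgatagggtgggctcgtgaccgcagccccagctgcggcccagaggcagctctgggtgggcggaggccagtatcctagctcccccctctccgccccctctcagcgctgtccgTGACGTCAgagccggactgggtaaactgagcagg
Dbh, chr2:27165257-27165536, plus strand: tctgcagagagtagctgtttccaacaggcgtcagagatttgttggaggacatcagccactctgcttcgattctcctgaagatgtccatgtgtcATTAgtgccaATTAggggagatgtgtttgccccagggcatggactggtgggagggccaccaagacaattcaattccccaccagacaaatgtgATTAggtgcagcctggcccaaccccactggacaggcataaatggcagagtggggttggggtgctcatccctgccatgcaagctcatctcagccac

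Levels of the 8 genes were low in the whole aorta, at most 14.68 FPKM, and all 8 were higher in each ApoE-/- library than in any double knockout library. By log2 CPM (counts scaled to library depth), 3.76% of the 39606 loci with at least 10 counts in total were separated in the same direction. The 8 genes were chosen with earlier results of these data known, so their separation is a description. Th, at chr7:142892752-142931128 on the minus strand (GRCm38), had 1.55, 1.42, 5.50, 0.61 and 0.60 FPKM in ApoE-/- 1 to 5, and 0.06, 0.00 and 0.03 FPKM in NPRC-/-ApoE-/- 1 to 3. The counts behind these values were 362, 271, 1283, 144 and 131 in ApoE-/- and 15, 0 and 8 in the double knockout. A count of 0 in NPRC-/-ApoE-/- 2 allows up to 3 counts by counting error alone, still below the lowest ApoE-/- library.

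Ddc, at chr11:11814101-11898144 on the minus strand, had 0.55, 0.49, 2.14, 0.23 and 0.40 FPKM in ApoE-/- and 0.10, 0.00 and 0.04 FPKM in the double knockout. Dbh, at chr2:27165233-27183200 on the plus strand, had 3.26, 1.93, 8.69, 0.80 and 1.83 FPKM in ApoE-/- and 0.13, 0.02 and 0.03 FPKM in the double knockout. The 3 enzymes thus followed the same order of high and low libraries at both ends, with ApoE-/- 3 highest and NPRC-/-ApoE-/- 2 lowest. An antisense gene, 1700042O10Rik, overlaps Ddc, and the counting is not stated to use strand, so its reads cannot be told apart from those of Ddc.

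The gap between groups was 1.84-fold in mean FPKM for the vesicular transporter and 14.2-fold for the reuptake transporter. Slc6a2, at chr8:92960079-93001667 on the plus strand, had 3.46, 2.55, 10.33, 2.21 and 2.02 FPKM in ApoE-/- and 0.31, 0.19 and 0.37 FPKM in the double knockout. Slc18a2, at chr19:59260896-59296012 on the plus strand, had 1.33, 1.17, 2.32, 1.07 and 1.23 FPKM in ApoE-/- and 0.79, 0.61 and 0.92 FPKM in the double knockout. The groups of Slc18a2 did not overlap either, but 0.92 and 1.07 FPKM lay next to each other, and the double knockout libraries held 24.6% of the FPKM summed over all 8 libraries, against 4.06% for Slc6a2 and 0.921% for Th. VMAT2 is not a marker of neurons alone, since mast cells use it to store amines. The antisense gene Gm29261 overlaps the 5′ end of Slc18a2, and its reads cannot be told apart from those of Slc18a2.

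Npy, the peptide co-transmitter of sympathetic nerves, at chr6:49822710-49829507 on the plus strand, had 6.74, 3.91, 14.68, 6.99 and 2.11 FPKM in ApoE-/- and 1.78, 0.06 and 0.99 FPKM in the double knockout. Its groups came close at 2.11 and 1.78 FPKM. Ngfr, the low-affinity receptor for nerve growth factor, which sympathetic neurons and Schwann cells both make, lies at chr11:95568818-95587735 on the minus strand. It had 2.00, 0.99, 7.55, 0.69 and 1.09 FPKM in ApoE-/- and 0.26, 0.04 and 0.20 FPKM in the double knockout, with a clear gap between the groups.

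Phox2a, a homeodomain factor that noradrenergic neurons need in order to form, lies at chr7:101818313-101822726 on the plus strand and had the lowest level of the 8 genes. Its FPKM was 0.20, 0.16, 0.46, 0.12 and 0.16 in ApoE-/- and 0.02, 0.11 and 0.05 in the double knockout, from 27 to 94 counts and 6 to 18 counts. Unlike the other 7 genes it was lowest in NPRC-/-ApoE-/- 1, and the gap between its groups was 0.12 against 0.11 FPKM. Inppl1, on the other strand, overlaps its last bases.

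**Figure D1:**
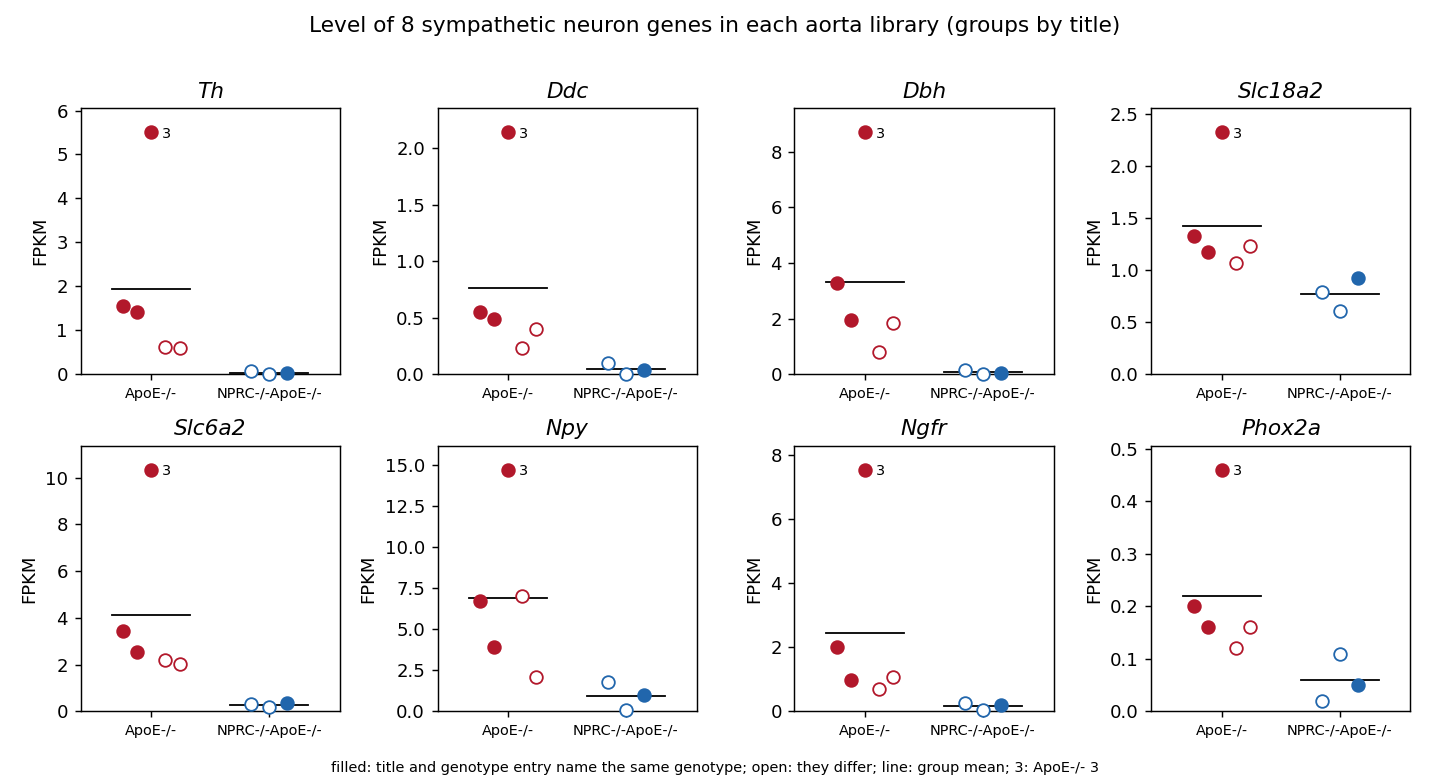
FPKM of each gene in every library, with the axis of each panel starting at 0, groups by title, and a line at the group mean; filled points have the same genotype in title and entry, open points do not. The point marked 3 is ApoE-/- 3, which is highest in all 8 panels, and no double knockout point reaches the lowest ApoE-/- point. By log2 CPM, 3.76% of 39606 loci were separated in the same direction.

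A large part of each mean came from ApoE-/- 3. It held 58.9% of the FPKM summed over the 8 libraries for Ngfr, 56.3% for Th, 54.2% for Ddc, 52.1% for Dbh and 48.2% for Slc6a2, and less for Npy (39.4%), Phox2a (35.9%) and Slc18a2 (24.6%). Mean Th was 1.94 ± 2.04 FPKM (SD, n = 5) in ApoE-/- and 0.03 ± 0.03 FPKM (SD, n = 3) in the double knockout. The ratio of group means was 64.5-fold for Th and 34.8-fold without ApoE-/- 3. It was 55.0-fold for Dbh and 32.6-fold without that library, and 14.2-fold for Slc6a2 and 8.83-fold without it. Leaving out the highest library thus made these ratios smaller and did not change which group was higher.

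By mean FPKM over all 8 libraries, the order was Npy (4.66), Slc6a2 (2.68), Dbh (2.09), Ngfr (1.6), Th (1.22), Slc18a2 (1.18), Ddc (0.494) and Phox2a (0.160). Slc6a2 was above Dbh, its neighbour, in 8 of 8 libraries, and Slc18a2 was above Ddc in 8 of 8. Th and Slc18a2 could not be ordered, since Th was the higher in 3 libraries and the lower in 5, with a mean difference of 0.0413 ± 1.34 FPKM (SD, n = 8). Dbh was above Ngfr in 5 libraries and below it in 3. In the double knockout alone the order was different. Npy (0.943) and Slc18a2 (0.773) were first, and Th (0.030) was last.

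Within the ApoE-/- libraries Ddc, Slc6a2, Dbh, Ngfr, Npy and Phox2a varied less relative to Th than on their own, as highest over lowest library. Slc18a2 varied more. Ddc was 0.345 to 0.667 of the FPKM of Th, Slc6a2 was 1.80 to 3.62 times Th, and Dbh was 1.31 to 3.05 times Th, while Th itself spanned 0.60 to 5.50 FPKM. Ngfr was 0.697 to 1.82 times Th, and Phox2a was 0.0836 to 0.267 of the FPKM of Th. The widest ratios were those of Npy, at 2.67 to 11.5 times Th, and Slc18a2, at 0.422 to 2.05 times Th. Slc18a2 relative to Th was lowest in ApoE-/- 3, the library with the most Th. These are ratios of 5 libraries, given without a test. No ratio was formed in the double knockout, where Th had 15 counts or fewer.

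**Figure D2:**
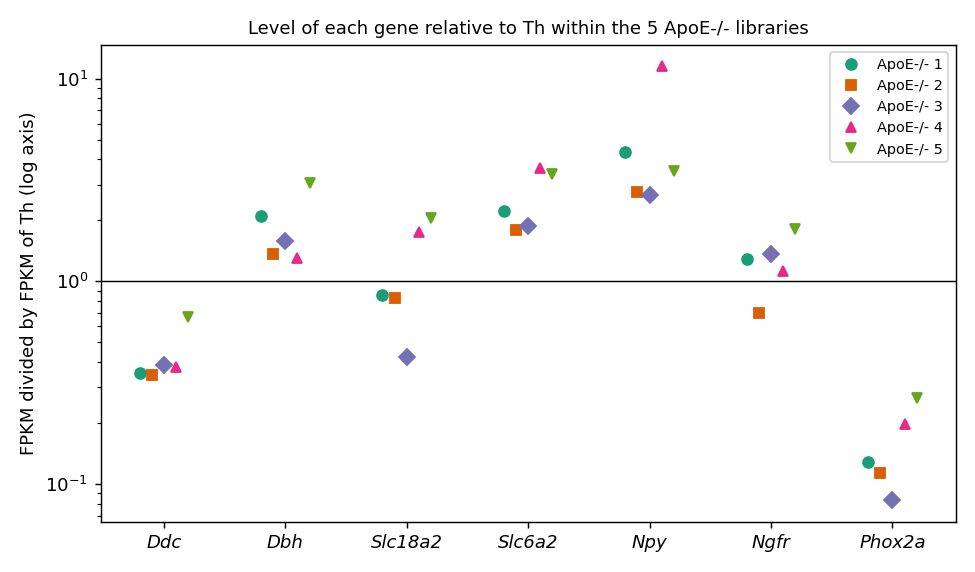
FPKM of each gene divided by the FPKM of Th in the same library, on a log axis, for the 5 libraries titled ApoE-/-. Ddc lies between 0.345 and 0.667 and Slc6a2 between 1.80 and 3.62, whereas Npy reaches 11.5 in ApoE-/- 4 and Slc18a2 falls to 0.422 in ApoE-/- 3.

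By title, 5 of the 6 genes that had at least 1 FPKM in at least 3 libraries met the study's own criterion, a fold change over 2 or under 0.5 with an unadjusted p under 0.05 (edgeR), all of them lower in the double knockout. The same was true of 491 of the 20506 loci tested, or 2.39%. Those 6 genes passed the filter through their ApoE-/- values, so this count is a description of them and supports nothing further. Ddc and Phox2a did not pass the filter. With any locus of at least 10 counts in total admitted, all 8 genes were tested and 7 met the criterion, beside 3.74% of 39606 loci. The members' median log2 fold change was -3.85 in that fit, and the median over all loci was -0.02.

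Th had a log2 fold change of -5.89 (SE 1.18; edgeR adjusted p = 0.22), and Dbh of -5.73 (SE 1.05; edgeR adjusted p = 0.19). These ranked 6 and 7 from the lowest among the 20506 log2 fold changes, a set that these genes entered through their ApoE-/- values. Without the filter they ranked 314 and 348 of 39606. Ngfr followed at -3.86 (SE 1.03; edgeR adjusted p = 0.26) and Slc6a2 at -3.83 (SE 0.71; edgeR adjusted p = 0.19). Npy was lower by less, at -2.85 (SE 0.92; edgeR adjusted p = 0.29). Slc18a2 was at -0.87 (SE 0.32; edgeR adjusted p = 0.32), a fold of 1.82, which misses the fold criterion. In the fit without the filter, Ddc was at -3.98 (SE 1.15; edgeR adjusted p = 0.31) and Phox2a at -1.78 (SE 0.64; edgeR adjusted p = 0.38).

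No adjusted p of these genes was under 0.05 in the edgeR fit, nor was that of any other locus, while 2797 of 20506 loci had an unadjusted p under 0.05. DESeq2 on the same libraries gave 650 loci an adjusted p under 0.05, among them Slc6a2 (1.4e-08), Dbh (6.4e-07), Th (5.9e-05), Ngfr (0.0071) and Npy (0.014), with Slc18a2 at 0.12. Over the 17 alternative fits that kept the titles, the adjusted p of Th ran from 5.9e-05 to 0.73, and that of DESeq2 was the 1 value under 0.05. An exact two-sided permutation test of log2 CPM, counts scaled to library depth, gave p = 0.0357 for each of the 8 genes, which is the smallest that the 56 possible splits of 5 and 3 libraries allow. The groups of 3.76% of the 39606 loci were separated in the same direction.

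Without ApoE-/- 3, 7 of the 8 genes still met the criterion, beside 2.91% of loci, and 6 of those 7 log2 fold changes stayed under -2. Th was at -4.93 (SE 0.86) and Dbh at -4.90 (SE 0.73). Slc6a2 was at -3.08 with a much smaller error (SE 0.32; edgeR adjusted p = 0.15). Phox2a, at -1.28, was the closest to losing the criterion (edgeR adjusted p = 0.56). In the 4 libraries whose title and entry name the same genotype, ApoE-/- 1 to 3 and NPRC-/-ApoE-/- 3, Th was at -6.38 (SE 1.38) and Slc6a2 at -3.84 (SE 1.07), where the single double knockout library is assumed to vary like the ApoE-/- libraries.

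Grouped by the genotype entry, 0 of the 8 genes separated the groups and 0 met the criterion, which 0.76% of 39606 loci met in the direction of a lower level in Nprc-/-Apoe-/-. Th had a log2 fold change of -2.09 (SE 1.66), Ngfr of -1.77 (SE 1.35) and Slc6a2 of -1.17 (SE 1.21), and all 8 edgeR adjusted p-values were 1. These values shrank without ApoE-/- 3, which both labels place in ApoE-/-. Th was then at -0.83 (SE 1.51), Slc6a2 at -0.03 (SE 1.01), Npy at 0.19 and Slc18a2 at 0.20. Exact permutation p-values by entry were 0.679 to 1. Which of the labels is right was not tested, and the size of every difference between genotypes given here depends on it.

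**Figure D3:**
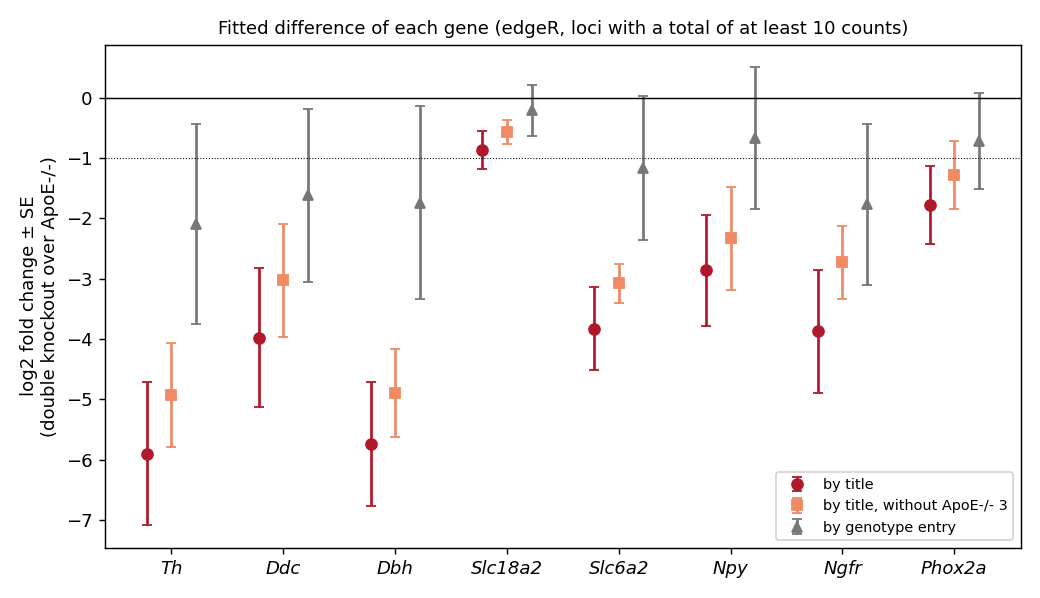
Log2 fold change of the double knockout over ApoE-/- with its standard error for each gene, from edgeR fits of all loci with at least 10 counts, by title, by title without ApoE-/- 3, and by genotype entry; the dotted line is a 2-fold lower level. By title the values run from -5.90 for Th to -0.87 for Slc18a2, and by entry from -2.09 to -0.21 with standard errors of 0.42 to 1.66.

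Genes of other lists were counted in the fit without the FPKM filter. In that fit, 3.74% of 39606 loci were lower by the criterion, and 2.91% without ApoE-/- 3. By entry, no gene of these lists was lower by the criterion and 1, Chrna4, was higher. Over the 39606 loci by entry, 301 were lower and 406 were higher. Of 14 genes listed for making the cofactor tetrahydrobiopterin or for the transport or breakdown of catecholamines, 13 were tested. The criterion was met by 1, Vat1l (log2 fold change -1.59, edgeR adjusted p = 0.34), whose part in these steps is not shown here. The median log2 fold change of the 13 was -0.17. Pnmt, which turns noradrenaline into adrenaline in the adrenal medulla, had 0.00 to 0.31 FPKM in ApoE-/- and 0.07 to 0.30 FPKM in the double knockout (log2 fold change 0.22, SE 0.98). The dopamine transporter Slc6a3 was listed at 0 in all 8 libraries.

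Among factors that specify sympathetic neurons, 3 of 11 met the criterion. Of these, Hand1 and Tlx2 had no count in any double knockout library. Against a floor of 3 counts per library, Hand1 was at least 13.6-fold lower and Tlx2 at least 7.27-fold lower in mean CPM, although Tlx2 was also at 0 in ApoE-/- 2. Gata2, the factor with the highest level, had 1.05 to 2.01 FPKM in ApoE-/- and 0.97 to 1.59 FPKM in the double knockout, and did not meet the criterion.

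Of 14 trophic factor and receptor genes tested, 2 met the criterion, among them Gfra1, the receptor for GDNF (log2 fold change -1.11, edgeR adjusted p = 0.40). Sort1, the trophic gene with the highest level, had 15.8 to 21.6 FPKM in ApoE-/- and 19.61 to 21.96 FPKM in the double knockout.

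Of 7 nicotinic acetylcholine receptor subunits tested, 3 met the criterion, and these were Chrna3, Chrna5 and Chrnb4, the subunits of the receptor that receives the preganglionic signal in autonomic ganglia. Chrna3 had 0.35, 0.35, 1.43, 0.12 and 0.23 FPKM in ApoE-/- and 0.04, 0.00 and 0.01 FPKM in the double knockout (log2 fold change -4.89, SE 1.22, edgeR adjusted p = 0.28). Chrnb4 had 0.33, 0.17, 1.02, 0.06 and 0.08 FPKM in ApoE-/- and 0.01, 0.00 and 0.03 FPKM in the double knockout. Chrna5 was at 0 in all 3 double knockout libraries and at least 5.56-fold lower against the same floor, although it was also at 0 in ApoE-/- 2. Chrnb2, the subunit with the highest level, had 0.43 to 0.75 FPKM in ApoE-/- and 0.41 to 0.50 FPKM in the double knockout.

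Receptors for the transmitters of these nerves were not lower. Npy1r, the neuropeptide Y receptor of smooth muscle, had 5.94, 6.91, 7.39, 4.76 and 9.40 FPKM in ApoE-/- and 9.34, 11.82 and 16.16 FPKM in the double knockout, with a log2 fold change of 0.90 (SE 0.24; edgeR adjusted p = 0.29) that is under the 2-fold limit. None of the 9 adrenergic receptor genes met the criterion. Adra1d, the highest of them, had 6.89 to 14.2 FPKM in ApoE-/- and 7.96 to 15.8 FPKM in the double knockout.

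Neuronal genes outside the noradrenaline pathway were lower by title as well. Of 24 genes for neuronal cytoskeleton, synapse and RNA-binding proteins, 16 met the criterion, all lower in the double knockout, beside 3.74% of loci. Without ApoE-/- 3, 13 did so, beside 2.91% of loci. With the FPKM filter, 8 of them were tested and 4 met it. The median log2 fold change of the 24 was -1.77 by title and -0.63 by entry. Snap25, a protein of synaptic vesicle release, had 0.15, 0.19, 0.59, 0.10 and 0.07 FPKM in ApoE-/- and 0.00, 0.01 and 0.01 FPKM in the double knockout. Uchl1 had the highest level of this list and overlapped between groups, with 7.41 to 20.4 FPKM and 9.58 to 14.1 FPKM. Tubb3, the next, met the criterion at -1.69 (SE 0.66; edgeR adjusted p = 0.39), but not without ApoE-/- 3 (-1.32, SE 0.61). Summed over the 24 genes, the level was 26.2 to 77.9 FPKM in ApoE-/- and 21.4 to 31.9 FPKM in the double knockout, highest in ApoE-/- 3.

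Markers of other neurons and of chromaffin cells were examined beside these in the same fit, where 3.74% of loci were lower by the criterion. Of 10 genes of dense-core granules that were tested, 5 met the criterion (Chgb, Scg2, Scg5, Pcsk2 and Pcsk1n), and 3 did without ApoE-/- 3. Sympathetic neurons and chromaffin cells share these proteins. Pcsk1n had 0.79, 0.64, 2.44, 0.34 and 0.49 FPKM in ApoE-/- and 0.03, 0.00 and 0.03 FPKM in the double knockout. Cpe, the highest gene of the list, overlapped between groups. Of 9 genes of the steroid-making adrenal cortex, the steroid-synthesis enzymes Cyp11a1 and Cyp11b1 reached at most 0.09 FPKM and Cyp21a1 0.06 FPKM in any library. Scarb1 and Star, which had the highest levels of that list, had 2.26 to 3.53 FPKM and 1.16 to 1.46 FPKM over the 8 libraries, and Fdx1 had 0.55 to 1.39 FPKM. The sum of the list was 4.42 to 6.16 FPKM in ApoE-/- and 4.89 to 5.11 FPKM in the double knockout. Only Cyp11b1 of that list met the criterion, from 12 counts or fewer per library. Of the cholinergic genes, Slc18a3 and Slc5a7 had at most 0.04 FPKM, and Ache, the highest, had 0.24 to 1.22 FPKM and 0.10 to 0.49 FPKM. None of the 3 tested met the criterion.

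Sensory neuron genes gave few counts. Calca, Calcb and Tac1, the peptide genes of sensory fibres, had at most 0.09 FPKM. Of 11 genes tested, 3, among them Trpv1 and Scn11a, were lower in the double knockout by the criterion, and Mrgprd was higher. Over the 39606 loci of that fit, 1480 were lower and 686 were higher by the criterion. Mrgprd had 0.00, 0.03, 0.00, 0.00 and 0.00 FPKM in ApoE-/- and 0.25, 0.37 and 0.22 FPKM in the double knockout.

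Markers of other cell types in the wall were compared by title in the same fit, where 3.74% of loci were lower by the criterion. Their part in these differences was not tested. Of 16 genes of Schwann cells and satellite glia, all 16 had a negative log2 fold change and 3, among them Sox10 and Mag, met the criterion. Without ApoE-/- 3, 2 did, beside 2.91% of loci, and Mag did not (log2 fold change -1.25, SE 0.57). The summed level of the 16 genes was 36.4 to 44.6 FPKM in ApoE-/- and 26.7 to 31.7 FPKM in the double knockout. Pmp22 and S100b, the highest of this list, did not meet the criterion. The median log2 fold change of the 16 was -0.84 by title and 0.04 by entry. None of 10 smooth muscle genes met the criterion, and all 10 had a positive log2 fold change. Their summed level, led by Acta2 and Tagln, was 1353 to 1806 FPKM in ApoE-/- and 1753 to 2995 FPKM in the double knockout. None of 10 adventitial fibroblast genes met it either, and their sum, led by Col1a1 and Lum, was 663 to 1600 FPKM and 387 to 869 FPKM. Of 10 macrophage genes, 4 met it (Lyz2, C1qa, C1qb and Fcgr1), all lower in the double knockout. With the FPKM filter 3 met it, since Lyz2 had an edgeR p of 0.051. Without the filter and ApoE-/- 3, 2 met it (C1qa and Fcgr1), beside 2.91% of loci. The sum of the 10 genes, led by Lyz2 and C1qb, was 715 to 2216 FPKM and 343 to 1127 FPKM. By title, the sums of these 3 lists overlapped between the groups, and that of the Schwann cell list did not. By log2 CPM, 6 of the 16 Schwann cell genes were separated in that direction, beside 3.76% of 39606 loci. By entry the Schwann cell sum overlapped, at 26.7 to 44.6 FPKM in Apoe-/- and 29.3 to 40.2 FPKM in Nprc-/-Apoe-/-. In whole-aorta RNA, fewer cells of a type and less RNA per cell cannot be told apart, and the same holds for the amount of tissue around the vessel that each sample carried.

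ApoE-/- 3 was high in some of these lists and low in others. Its fibroblast sum of 1600 FPKM was the highest of the 8 libraries and its macrophage sum of 2106 FPKM was second to that of ApoE-/- 4. Its brown fat sum of 133 FPKM, led by Ucp1 and Cox8b, was the lowest, beside 251 to 619 FPKM in the other 7 libraries, and its white fat sum of 158 FPKM, led by Pck1 and Car3, was the lowest as well. The endothelial sum, led by Vwf and Pecam1, was 112 FPKM in ApoE-/- 3 and 103 to 125 FPKM over all libraries. The 8 sympathetic genes summed to 51.7 FPKM in ApoE-/- 3, to 9.44 to 19.1 FPKM in the other ApoE-/- libraries and to 1.03 to 3.45 FPKM in the double knockout.

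**Figure D4:**
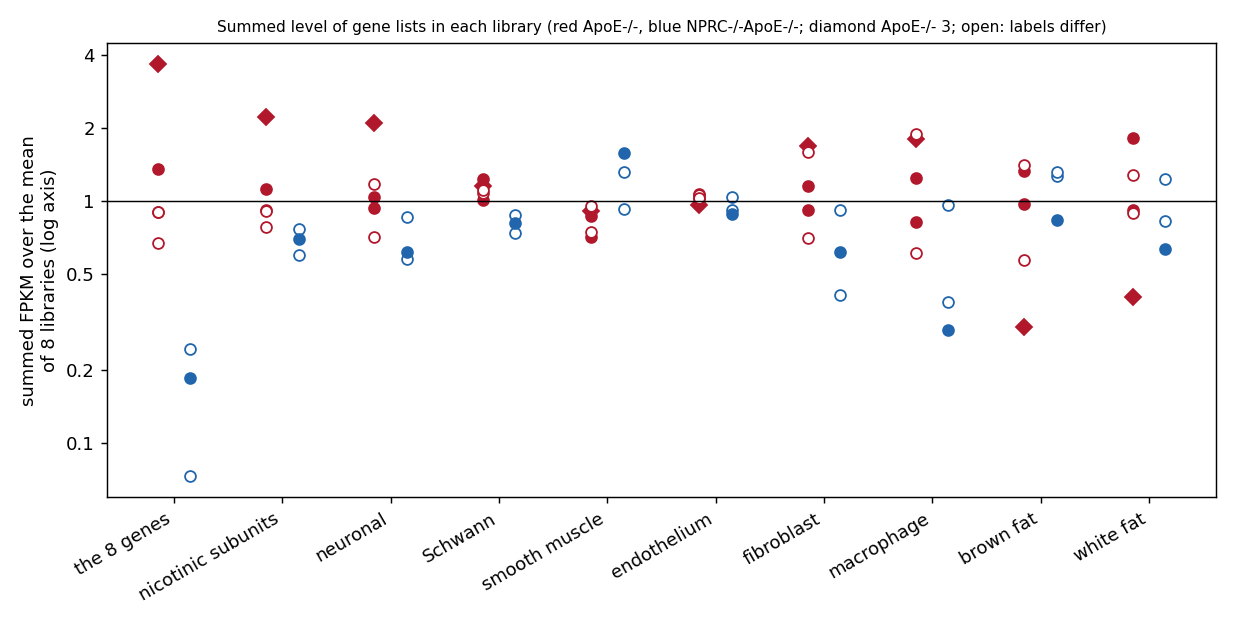
Summed FPKM of each list in every library, divided by its mean over the 8 libraries, on a log axis; red points are ApoE-/- by title, blue points NPRC-/-ApoE-/-, the diamond is ApoE-/- 3 and open points are libraries whose labels disagree. The 8 sympathetic genes range from 0.0731 to 3.67 times their mean, against 0.576 to 2.10 for neuronal genes, 0.293 to 1.89 for macrophage genes, 0.302 to 1.40 for brown fat genes, 0.737 to 1.23 for Schwann cell genes and 0.887 to 1.07 for endothelial genes.

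Genes outside the 8 were ranked by how close their profile over the 8 libraries lay to that of the sympathetic genes. Likeness was the root mean square difference of log2 CPM, each gene centred on its own mean, over 18472 loci of a single gene name. Among those closest to the mean profile of the 6 tested members were Col6a5 (0.59) and Chl1 (0.65), followed by Bex1 (0.84), Saa3 (0.85), Adap2os (0.87), Cxcl14 (0.94), Aif1 (0.97), Phf11b (1.01) and Aldh1a2 (1.06), where the median locus stood at 2.03. Col6a5 had 2.23, 2.11, 4.06, 1.73 and 1.16 FPKM in ApoE-/- and 0.47, 0.18 and 0.23 FPKM in the double knockout. Closest to Th alone were Chl1 (1.38), Col6a5 (1.44), Saa3 (1.5) and Il6 (1.5), all farther from it than Dbh (0.52), Ddc (0.76), Ngfr (1.04), Slc6a2 (1.15) or Npy (1.29). The remaining members, Phox2a (2.28) and Slc18a2 (2.45), lay farther from Th than those 4 genes. They also lay farther from the mean profile, at 1.42 and 1.51, than every gene named for it.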

How the data were processed

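Whole-aorta poly(A) RNA of 8 libraries was sequenced as paired reads from kits that mark strand. Per the study's methods, reads were mapped by the authors with HISAT2, StringTie assembled the loci, and the submitters' processing notes name cutadapt 1.9, FastQC and GRCm38; how reads were counted is not given in the sources used here. The authors deposited raw counts and FPKM per assembled locus, and all tests used the deposited counts, while deposited FPKM served to compare genes. Library totals were 62969165 to 86693276 counts. The 20506 of 48607 loci that reached 1 FPKM in 3 or more libraries were fitted with edgeR 4.0.16 (R 4.3.3; quasi-likelihood, TMM), and p-values were adjusted by Benjamini-Hochberg. The study's methods name 5 mice per group, and 8 libraries were analysed. DESeq2 1.42.0, limma 3.58.1 on log2(FPKM + 1), no FPKM filter with at least 10 counts in total, each library left out and a replicate block were alternatives. Scripts were tested on simulated counts.

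The 8 genes and all gene lists were chosen with earlier results of these data known. Named genes were the members, list genes that met the criterion or had the highest FPKM of their list, the 2 highest of each cell type list, and the loci most like the members. Snap25, Sox10, Mag, C1qa, Fcgr1, Fdx1 and the genes named for low levels were picked after their values were seen. The fit without both the filter and ApoE-/- 3 was added after seeing the data. Log2 CPM used a prior count of 2. The labels do not say whether libraries came from separate mice, so p-values measure the spread between these samples, which may be technical. The labels name no batch. Counting intervals cover counting error only. No 2 libraries agreed within sampling noise. Chat, Cyp11b2, Nr5a1, Chrna6 and Trpa1 were not analysed here. Some genes that these rules would name are not reported here.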

Additional observations from a re-analysis of the deposited data

Results flagged for a closer look

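Within the 5 libraries titled ApoE-/-, ApoE-/- 3 lay far from the rest for 2 of the 8 genes by Dixon's test. Slc18a2 stood at 4.00 log2 CPM there, beside 2.86 to 3.03 in the other 4 libraries. Phox2a stood at 0.35 log2 CPM, beside -1.42 to -0.99. Chance alone flags about 1 group in 20, or 0.9 of the 18 groups of 5 libraries examined, of which these 2 were flagged. For the other 6 genes ApoE-/- 3 was also the highest library, and the spread among the remaining 4 was wider than for these 2.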

How the results depend on the processing

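By title, the median log2 fold change of the 6 tested genes was -3.85 and 5 of them met the criterion, beside 491 of 20506 loci that were lower by it. Leaving out 1 library at a time gave medians of -4.05 to -2.89 and 5 to 6 genes, beside 227 to 1090 of 20506 loci. Limma on log2(FPKM + 1) gave -1.53, since the added 1 exceeds most double knockout values, and grouping by the genotype entry gave -1.45 and 0 genes. By entry the median of -1.45 ran from -1.80 to -0.15 as libraries were left out. Of 37 neural list genes that passed the filter, 6 were lower by the criterion, beside 2.39% of loci. The neural lists here include the NPY and adrenergic receptors and leave out the Schwann cell list. That count was 31 of 103 without the FPKM filter (3.74% of loci) and 26 without the filter and ApoE-/- 3 (2.91%). It was 1 with limma on log2(FPKM + 1), beside 137 of 20506 loci, and 0 by entry, beside 54 loci. As libraries were left out it was 2 to 7, with 3 without ApoE-/- 3 (308 loci) and 2 without NPRC-/-ApoE-/- 2 (227 loci). Slc18a2 met the criterion in 2 alternatives, without NPRC-/-ApoE-/- 3 and in the 6 libraries numbered 1 to 3 without a block, where its fold was 2.07. Same-numbered libraries did not deviate together (correlations of -0.274, -0.128 and -0.012), and those of different number gave -0.166 to 0.247. So few values cannot show whether the numbers pair libraries. With a replicate block in those 6 libraries the median was -4.08, with 5 genes by the criterion and 9 neural list genes, beside -4.32, 6 and 8 without the block. Of 20506 loci, 534 were lower by the criterion with the block and 586 without it. Of the single-gene values under alternatives, 181 kept their side of the criterion, 7 lost it, each under the genotype entry, and 2 gained it. Those 181 include 13 refits by entry for each of the 6 tested genes. These refits were set against an entry fit that already missed the criterion, so they kept the side of not meeting it. Low counts limit Phox2a and the double knockout values of Th and Ddc.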
